A study of Mus musculus with 4 samples.

Results

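Msx1, Msx2, Irx1, Irx5, Lmx1b and Twist1 are genes for transcription factors of embryonic mesenchyme. Among the libraries with a value, all 6 were highest in the testis library labelled ibuprofen with acetaminophen. Msx2 has no value for the acetaminophen library, and Irx1 none for aspirin with acetaminophen. All 6 genes were picked by gene symbol from the authors' deposited tables of called transcripts. They make up 6 of 382 transcripts there, 240 of which carry a gene name. Because they were picked with the values of these tables known, their levels below are a description and carry no test. The label holds as far as the symbols go. The tables measure RNA of whole gonads, so they do not show in which cells the genes were active.

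The study asked how drug exposure in the womb bears on the forming testis. Wild-type CD1 mouse embryos were taken at E13.5, their gonads were cut free of the mesonephros, and total RNA depleted of ribosomal RNA was sequenced. The 4 groups were IBU+ACE (ibuprofen with acetaminophen), ASP+ACE (aspirin with acetaminophen), ACE+ACE (acetaminophen) and Control, whose treatment is labelled as none but which the tables call EtOH. Each group had 1 library, which leaves every difference without replicates. The sources used here do not give the dose, the days of exposure or the number of embryos behind a library. Levels are the deposited values, read as FPKM (fragments for each kilobase of a transcript, normalised to the fragments mapped), which allow levels of different genes to be compared. Their depth is unknown.

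A transcript is called listed, higher or lower only where the authors' deposited table of that pair of libraries holds it. Each such row has a q-value of 0.0310, so the q-value ranks nothing. A missing row means that no call was made, not that levels were equal. Of the marker genes of the labelled tissue, 2 of 12 Sertoli genes (Sox9 and Cst9) and the germ cell genes Sohlh2 and Dppa5a have values in the tables. Sox9 was listed as higher in IBU+ACE against each other library, with 10.04 FPKM in IBU+ACE, 5.22 FPKM in ASP+ACE, 5.97 FPKM in ACE+ACE and 5.98 FPKM in Control. It is also counted below among transcription factors of limb, face and mesenchyme, so it does not mark Sertoli cells alone. Cst9 was higher at 113.9 FPKM in IBU+ACE, against 63.3 FPKM in Control. Most rows were higher in IBU+ACE as well, 81.6% against Control, 92.0% against ASP+ACE and 89.2% against ACE+ACE. Only 2 of the 8 genes of the germ cell list have a row, and these were lower in IBU+ACE where listed. Sohlh2 had 4.71 FPKM in IBU+ACE, against 8.37 FPKM in ACE+ACE and 8.30 FPKM in Control. Dppa5a had 55.4 FPKM in IBU+ACE, against 95.5 FPKM in ASP+ACE. These 2 genes do not stand for germ cell genes as a class. The listed testis markers thus differed between these libraries too. Xist, the non-coding RNA of X inactivation, which marks cells with a silenced X chromosome, was listed as higher in IBU+ACE against each other library. It had 11.1 FPKM in IBU+ACE, 0.668 FPKM in ASP+ACE, 0.710 FPKM in ACE+ACE and 0.954 FPKM in Control, and the part of female cells in the levels below was not tested. No member of the Leydig list (6 genes) or of the list of testis interstitial mesenchyme (9 genes) has a row, and the same holds for Amh and Ddx4. The tissue could therefore be checked only in part.

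Msx1 and Msx2 are homeobox genes that act largely as repressors and are classical targets of BMP signalling in the mesenchyme of the limb, face, tooth and genital tubercle. In the mouse fetal ovary they also act in germ cells that enter meiosis. Irx1 and Irx5 belong to the Iroquois homeobox family, which lies in gene clusters, and Irx5 is known with its neighbour Irx3 from the somatic cells of the mouse fetal ovary. Lmx1b, a LIM homeobox gene, gives the dorsal side of the limb its identity and is needed in kidney podocytes. Twist1 encodes a basic helix-loop-helix factor of mesoderm and neural crest that binds E-boxes.

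The upstream sequences are shown because the genes were chosen for being higher in the same library. RefSeq windows on GRCm38.p6 were at hand for 4 of the 6, Msx1, Msx2, Lmx1b and Twist1, and not for Irx1 and Irx5. Each printed stretch is the 250 bases before the RefSeq start site, read 5′ to 3′ on the strand of the gene, and capitals mark the CCAAT box (CCAAT, or ATTGG where it lies on the opposite strand). The stretches are chr5:37824586-37824835 on the minus strand for Msx1, chr2:33641099-33641348 on the minus strand for Lmx1b, and chr12:33957421-33957670 on the plus strand for Twist1.
Msx1: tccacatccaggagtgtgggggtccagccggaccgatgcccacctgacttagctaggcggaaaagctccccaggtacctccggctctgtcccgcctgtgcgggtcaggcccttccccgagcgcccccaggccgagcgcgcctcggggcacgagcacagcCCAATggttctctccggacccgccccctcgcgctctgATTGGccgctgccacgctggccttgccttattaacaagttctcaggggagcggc
Lmx1b: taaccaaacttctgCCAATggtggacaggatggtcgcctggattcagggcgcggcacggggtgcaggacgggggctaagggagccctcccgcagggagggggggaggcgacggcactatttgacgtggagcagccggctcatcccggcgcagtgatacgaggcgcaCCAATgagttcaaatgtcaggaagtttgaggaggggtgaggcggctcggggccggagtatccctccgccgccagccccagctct
Twist1: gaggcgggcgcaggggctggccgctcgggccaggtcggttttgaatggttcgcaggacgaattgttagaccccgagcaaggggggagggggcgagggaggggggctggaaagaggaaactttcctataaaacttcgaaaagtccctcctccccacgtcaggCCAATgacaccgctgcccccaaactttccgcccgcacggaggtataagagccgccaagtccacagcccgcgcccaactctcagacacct
The Msx2 window lies inside the deposited Msx2 locus and is described without its letters. The Lmx1b start site of RefSeq lies 587 bases outside the deposited Lmx1b locus.

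A CCAAT box was found in all 4 windows, with 6 matches in all, against 33.8% of 32851 RefSeq windows of the same length. Msx1 held it at 91 and 54 bases before the start (first base of each match), Msx2 at 124, Lmx1b at 236 and 84, and Twist1 at 89. An E-box (CANNTG) stood in 3 of the 4 windows, all but that of Twist1, against 66.2% of all windows. The letters TATAAA, the motif of the TATA box, were found in the Twist1 window alone, at 126 bases before the start, against 12.4% of all windows. Whether this match serves as a TATA box was not tested. The Lmx-type homeodomain core TAATTA was found in the Msx2 window alone, against 4.84%. The Msx-type core TAATTG, the Irx-type motif ACANNTGT and the GC-rich Smad motif GGCGCC had no match in the 4 windows and occur in 7.17%, 6.31% and 9.59% of all windows. Both strands were searched, no match listed here overlaps another, and the motifs were chosen after the sequences had been seen. The windows were rich in G and C, with 68.0% for Msx1, 61.6% for Msx2, 65.2% for Lmx1b and 62.4% for Twist1, against a median of 52.4% over all windows. A match describes the letters and does not show that a factor binds there.

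Msx1 showed the plainest split between the libraries. Its deposited locus (GRCm38 chromosome 5, 37820485 to 37824583, minus strand) equals the GENCODE M21 gene, which has 2 exons. Msx1 stood at 12.7 FPKM in IBU+ACE, against 0.676 FPKM in ASP+ACE, 0.659 FPKM in ACE+ACE and 0.788 FPKM in Control. The 3 lower libraries lay within 1.20-fold of each other, and IBU+ACE was 16.1-fold above the highest of them. The log2 ratios of IBU+ACE were 4.01 over Control, 4.24 over ASP+ACE and 4.27 over ACE+ACE, and Msx1 is listed in each of these tables. With whole gonads, more cells with Msx1 RNA and more Msx1 RNA in each cell cannot be told apart, and this holds for every level below.

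Msx2, the close relative of Msx1, was higher by a smaller ratio. Its locus (chromosome 13, 53466884 to 53473074, minus strand) equals the annotated gene, also of 2 exons. Msx2 had 2.31 FPKM in IBU+ACE, 0.868 FPKM in ASP+ACE and 0.603 FPKM in Control, and no value for ACE+ACE. The log2 ratio of IBU+ACE was 1.94 over Control and 1.41 over ASP+ACE. With 1 FPKM added to both values, the ratio over ASP+ACE was 0.83, short of a log2 of 1. The balance of both Msx genes also differed between libraries, with Msx1 at 5.51 times the FPKM of Msx2 in IBU+ACE, against 0.778 times in ASP+ACE and 1.31 times in Control.

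The Iroquois genes were low outside IBU+ACE. Irx1 had 2.52 FPKM in IBU+ACE, against 0.161 FPKM in ACE+ACE and 0.121 FPKM in Control, and no value for ASP+ACE. IBU+ACE was 15.7-fold above ACE+ACE and 20.8-fold above Control. The deposited Irx1 locus (chromosome 13, 71954854 to 71963723, minus strand) runs 3067 bases past the annotated gene of 4 exons. It takes in Gm40999, a non-coding RNA gene on the same strand. Whether the Irx1 value includes that gene is not known, since a locus can reach beyond the transcript measured. Irx5 had 2.41 FPKM in IBU+ACE, against 0.147 FPKM in ASP+ACE, 0.209 FPKM in ACE+ACE and 0.200 FPKM in Control. Its log2 ratios were 3.59 over Control, 4.04 over ASP+ACE and 3.53 over ACE+ACE, and its locus (chromosome 8, 92357796 to 92361456, plus strand) lies within the annotated gene. In IBU+ACE the FPKM of Irx5 was 0.958 times that of Irx1, so that the genes of these separate clusters stood at nearly the same level.

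No other Iroquois gene has a row in any table. Irx2 and Irx4, the cluster neighbours of Irx1, lie 665 and 1297 kb away from it, and Irx3 and Irx6, the neighbours of Irx5, lie 556 and 298 kb away. Of the relatives listed for the families, Msx3, Irx2, Irx3, Irx4, Irx6, Lmx1a and Twist2, 0 of 7 were called in any comparison, so their levels are not known here.

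In every library, Lmx1b was the lowest of the genes that had a value. It had 0.852 FPKM in IBU+ACE, 0.0290 FPKM in ASP+ACE, 0.0339 FPKM in ACE+ACE and 0.0611 FPKM in Control. Its log2 ratios were 3.80 over Control, 4.88 over ASP+ACE and 4.65 over ACE+ACE, each on a lower value under 0.1 FPKM. With 1 FPKM added to both values they were 0.80, 0.85 and 0.84, and with 0.1 FPKM added they were 2.56, 2.88 and 2.83. Lmx1b also varied most among the lower libraries with a value, by 2.11-fold, where the other 5 genes varied by 1.20 to 1.44-fold. Its locus (chromosome 2, 33560965 to 33640511, minus strand, 8 exons) equals the annotated gene and holds Gm38011, an annotated transcript on the opposite strand.

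Twist1 differed from the homeobox genes in being well above 1 FPKM in all libraries. It had 17.9 FPKM in IBU+ACE, 4.30 FPKM in ASP+ACE, 3.74 FPKM in ACE+ACE and 5.20 FPKM in Control. The ratio of IBU+ACE to the highest other library was 3.45 for Twist1, against 16.1 for Msx1. In absolute terms the order changed, since IBU+ACE exceeded the mean of the other libraries by 13.51 FPKM for Twist1, by 12.0 FPKM for Msx1, and by 0.810 to 2.38 FPKM for the other 4 genes. The Twist1 locus (chromosome 12, 33957671 to 33963506, plus strand) runs 3677 bases past the end of the annotated gene of 2 exons, and no other annotated gene overlaps it.

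**Figure D1:**
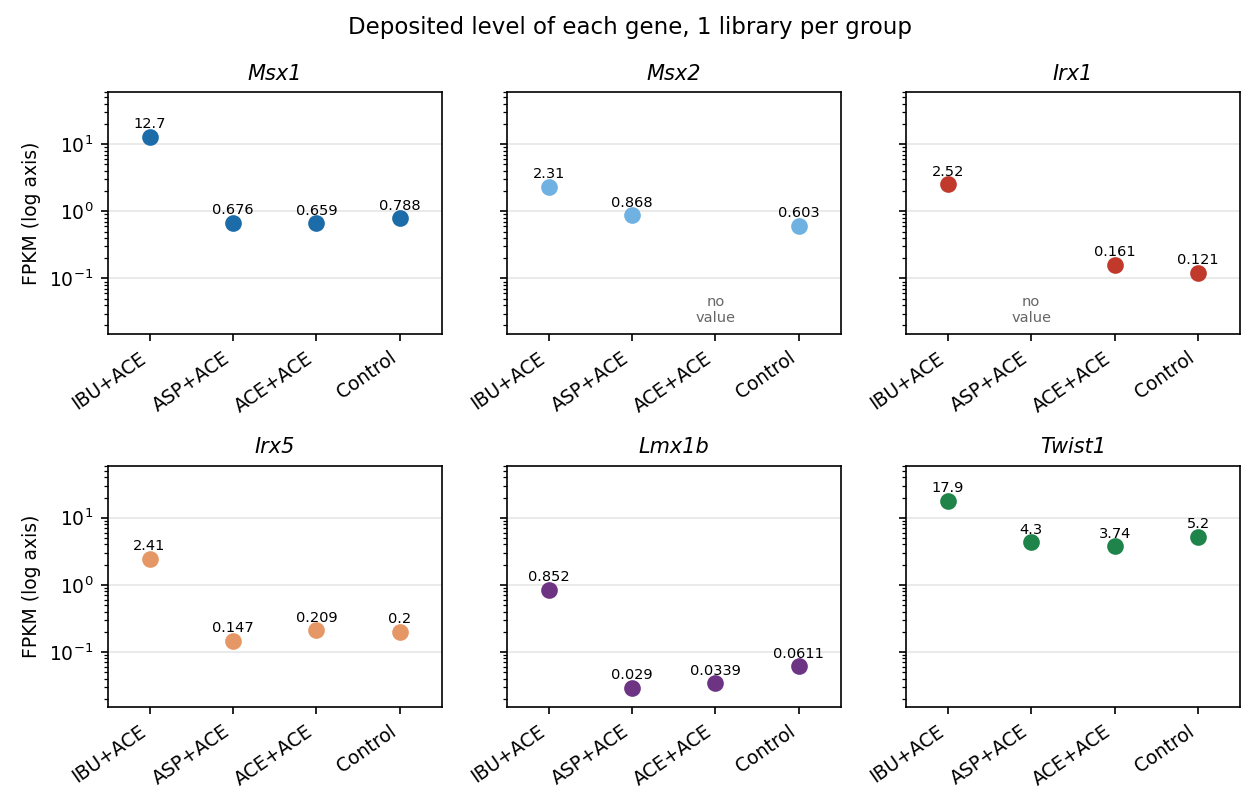
Deposited FPKM (log axis) of the 6 genes in the IBU+ACE, ASP+ACE, ACE+ACE and Control libraries, 1 point per library with its value above it. Each gene is highest in IBU+ACE among the libraries with a value. Msx2 has no value for ACE+ACE and Irx1 none for ASP+ACE. The points of the other libraries lie close together, within 2.11-fold for Lmx1b and within 1.44-fold for the other genes.

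Around Twist1 the tables hold 3 unnamed transcripts, each higher in IBU+ACE. One begins 5.09 kb past the Twist1 locus (33968600 to 33977845) and had 0.508 FPKM in IBU+ACE, 0.129 FPKM in ASP+ACE, 0.130 FPKM in ACE+ACE and 0.133 FPKM in Control. The second, 49.6 kb past it, had 0.485 FPKM in IBU+ACE and was listed at 0 in ASP+ACE, ACE+ACE and Control. The third, 386 kb before it, had 0.466 FPKM in IBU+ACE and was listed at 0 in Control. None of the 3 overlaps an annotated gene. Near Msx1, the kinase gene Stk32b (103 kb away) had 0.416 FPKM in IBU+ACE, 0.0934 FPKM in ACE+ACE and 0.0639 FPKM in Control. Within 500 kb, 2 of the 6 genes (33.3%) had another listed transcript, close to the 34.0% of the other 376 transcripts, so the share with such a neighbour is at the background.

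Against Control, all 6 genes were listed as higher in IBU+ACE. Their median log2 ratio was 3.70 (range 1.79 to 4.38). The median of the 180 other transcripts with a value above 0 in both libraries, listed in this table or not, was 1.01. Over the 155 listed transcripts with values above 0 it was 1.40. This table lists 48.4% of the 382 transcripts, and 81.6% of its 185 rows are higher in IBU+ACE. Among the 127 transcripts listed as higher with a value above 0 in Control, Irx1 had the 4th highest ratio, Msx1 the 6th, Lmx1b the 10th and Irx5 the 13th, whereas Msx2 was at place 45 and Twist1 at place 56. These shares and places describe the genes and support nothing, since the genes were chosen on these tables.

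Against ASP+ACE, 5 of the 6 genes were listed as higher in IBU+ACE, all but Irx1. The median log2 ratio over the 5 was 4.04 (range 1.41 to 4.88). Over 179 other transcripts with values above 0, listed in this table or not, it was 1.56, and over the 156 listed ones it was 1.75. The table lists 45.5% of the 382 transcripts, and 92.0% of its rows are higher in IBU+ACE. Against ACE+ACE, 5 of the 6 were again listed as higher, here all but Msx2, with a median log2 ratio of 3.97 (range 2.26 to 4.65). The median of 214 other transcripts, listed or not, was 1.56, and that of the 200 listed ones with values above 0 was 1.70. That table lists 60.7% of the 382 transcripts, and 89.2% of its rows are higher in IBU+ACE. The 3 comparisons share the IBU+ACE library, so they do not repeat the finding. Msx1, Irx5, Lmx1b and Twist1 were listed in all 3 tables, as were 23.0% of the 382 transcripts.

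**Figure D2:**
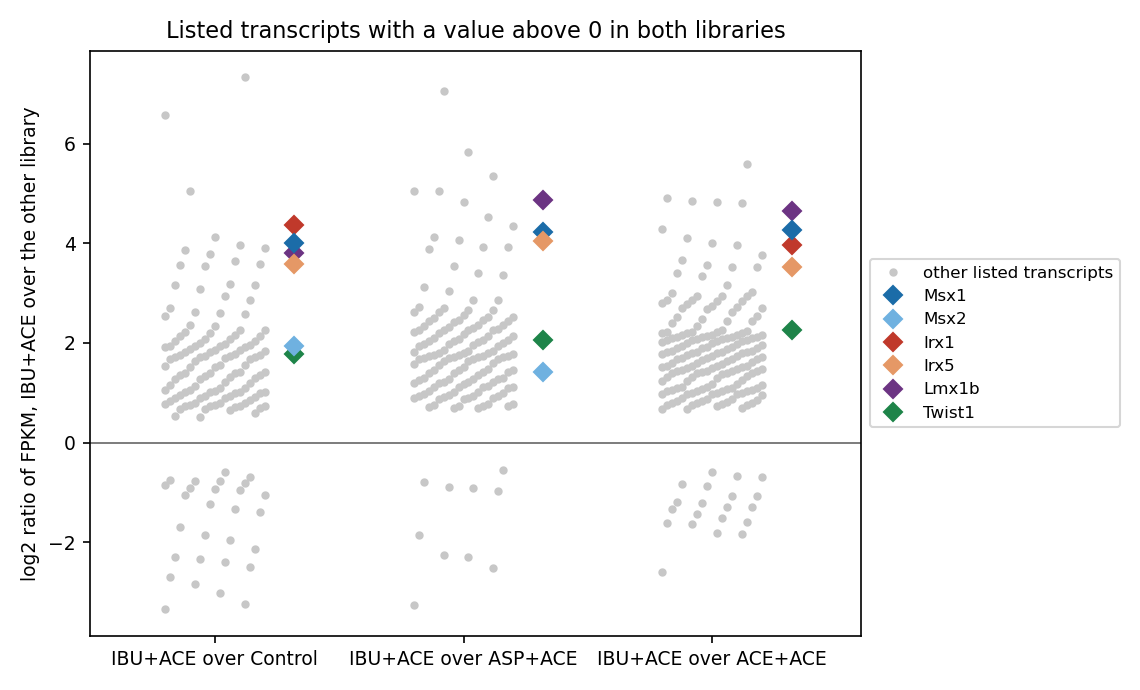
Log2 ratio of FPKM for the 3 comparisons of IBU+ACE with another library; grey points are other listed transcripts with a value above 0 in both libraries, spread sideways for display, and diamonds are the 6 genes where listed. Msx1, Irx1, Irx5 and Lmx1b lie between 3.53 and 4.88, and Msx2 and Twist1 between 1.41 and 2.26.

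The comparisons that leave out IBU+ACE list none of the 6 genes. The authors' test made 44 calls between ASP+ACE and Control (11.5% of the 382 transcripts, of which 34.1% were higher), 67 between ACE+ACE and Control (17.5%, of which 25.4% were higher) and 24 between ASP+ACE and ACE+ACE (6.28%, of which 58.3% were higher). Since levels come from the other tables, they can still be set side by side, with no call behind them. Twist1 had 0.828 times its Control level in ASP+ACE and 0.721 times in ACE+ACE, and Msx1 had 0.857 times in ASP+ACE and 0.837 times in ACE+ACE. Irx5 had 0.735 times its Control level in ASP+ACE and 1.05 times in ACE+ACE. Lmx1b, whose values were lowest, had 0.474 times in ASP+ACE and 0.555 times in ACE+ACE. Above their Control level stood Msx2, with 1.44 times in ASP+ACE, and Irx1, with 1.33 times in ACE+ACE. The median log2 ratio over Control was -0.27 for 5 of the genes in ASP+ACE, where 127 other transcripts had -0.20, and -0.26 for 5 in ACE+ACE, where 155 others had -0.35. Both ratios use the same Control library.

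**Figure D3:**
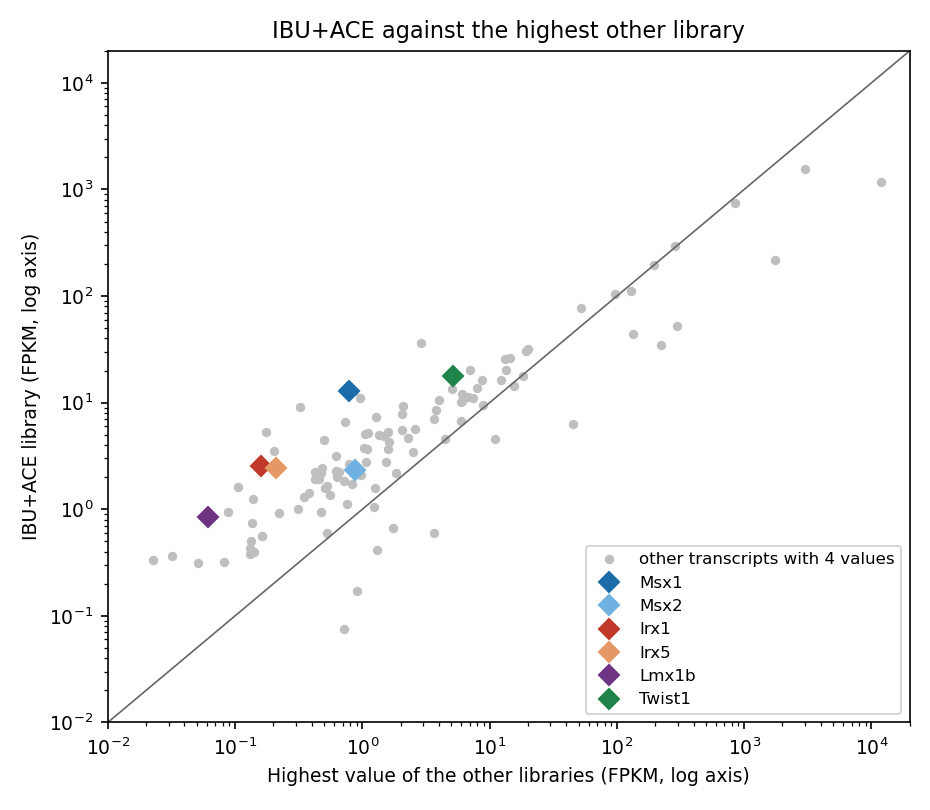
FPKM in IBU+ACE against the highest FPKM among the other libraries (both axes log), for the 6 genes (diamonds; Msx2 and Irx1 have values in only 2 of the other libraries) and for other transcripts with values above 0 (grey). The line marks equal levels, and the 6 genes lie above it by 2.66-fold (Msx2) to 16.1-fold (Msx1).

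Among the genes with a value, Twist1 was the highest and Lmx1b the lowest in all 4 libraries, while the genes between them changed places. Msx2 was 5th of 6 in IBU+ACE, 2nd of 5 and above Msx1 in ASP+ACE, and 3rd of 6 in Control. In IBU+ACE, Irx1, Irx5 and Msx2 stood close together at 2.52, 2.41 and 2.31 FPKM, and with 1 library their order cannot be told from its error. In Control, Msx1 (0.788 FPKM) and Msx2 (0.603 FPKM) were the next after Twist1, followed by Irx5, Irx1 and Lmx1b.

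Other transcription factors of limb, face and mesenchyme were higher in the same library where listed with it. Of 76 such genes, 12 have a row in any table. Against Control, 7 were listed as higher and 0 as lower in IBU+ACE. Their median log2 ratio was 1.75, against 1.40 over all 155 listed transcripts with values above 0. Against ASP+ACE 10 were higher and against ACE+ACE 7, with 0 lower in both. Of all rows, 81.6% against Control, 92.0% against ASP+ACE and 89.2% against ACE+ACE were higher in IBU+ACE. The direction of these genes is thus that of most rows. Meox2, a homeobox gene of somites and limb muscle precursors, had 4.49 FPKM in IBU+ACE, 0.437 FPKM in ASP+ACE, 0.353 FPKM in ACE+ACE and 0.5004 FPKM in Control. Osr1, a zinc finger gene of intermediate mesoderm and connective tissue, had 4.89 FPKM in IBU+ACE, 1.49 FPKM in ASP+ACE, 1.32 FPKM in ACE+ACE and 1.45 FPKM in Control. Tbx18, a T-box gene of somites and ureter mesenchyme, had 2.64 FPKM in IBU+ACE, 0.529 FPKM in ASP+ACE, 0.657 FPKM in ACE+ACE and 0.789 FPKM in Control for the transcript with 4 values.

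In each of these genes IBU+ACE stood above the other libraries, by 8.98-fold over Control for Meox2, 3.37-fold for Osr1 and 3.34-fold for Tbx18, next to 3.45-fold for Twist1. Gli3, the hedgehog pathway factor, showed a smaller ratio, with 2.76 FPKM in IBU+ACE, 1.49 FPKM in ASP+ACE, 1.54 FPKM in ACE+ACE and 1.48 FPKM in Control. Foxc1 and Barx2 were listed only between IBU+ACE and ASP+ACE. Foxc1 had 4.605 FPKM in IBU+ACE and 2.14 FPKM in ASP+ACE, and Barx2 had 1.003 FPKM in IBU+ACE and 0.227 FPKM in ASP+ACE. Tfap2b, of neural crest and limb, was listed only between IBU+ACE and ACE+ACE, at 0.739 FPKM in IBU+ACE and 0.0544 FPKM in ACE+ACE. Hoxa13 and Hoxd13, of the distal limb and genital tubercle, had the highest ratios of the list over Control, on Control values close to 0. Hoxa13 had 9.13 FPKM in IBU+ACE and 0.0961 FPKM in Control, a ratio of 95.0, or 47.1 with 0.1 FPKM added to both. Hoxd13 had 10.95 FPKM in IBU+ACE and 0.0680 FPKM in Control, a ratio of 161, or 65.8 with 0.1 FPKM added. Foxd1, a gene of kidney stroma, was the 1 gene of the list called without IBU+ACE, at 0.326 FPKM in ACE+ACE and 1.07 FPKM in Control. The deposited loci of Meox2, Tbx18, Gli3, Barx2, Gdf5, Krt5, Cst9, Actc1 and Myh3 overlap more than 1 annotated gene, so values of these may include neighbours.

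BMP pathway genes were listed as well. Of 24 genes, the same 4 were higher in IBU+ACE against each other library and 0 were lower, with a median log2 ratio over Control of 1.93. Most listed transcripts were higher as well, 81.6% against Control, 92.0% against ASP+ACE and 89.2% against ACE+ACE. Among the ligands, Bmp2 had 2.09 FPKM in IBU+ACE, 0.897 FPKM in ASP+ACE, 0.937 FPKM in ACE+ACE and 0.979 FPKM in Control. Gdf5, the ligand of forming joints, had 5.25 FPKM in IBU+ACE and 0.0916 to 0.174 FPKM in the other libraries. The receptor gene Bmpr1b had 1.58 FPKM in IBU+ACE, 0.470 FPKM in ASP+ACE, 0.506 FPKM in ACE+ACE and 0.478 FPKM in Control. The secreted inhibitor gene Nog had 2.29 FPKM in IBU+ACE, 0.598 FPKM in ASP+ACE, 0.619 FPKM in ACE+ACE and 0.519 FPKM in Control. The Id genes and Smad6, general targets of the pathway, have no row. None of 15 FGF and Wnt genes, among them Wnt7a, which acts upstream of Lmx1b in the mouse limb, was in any table.

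**Figure D4:**
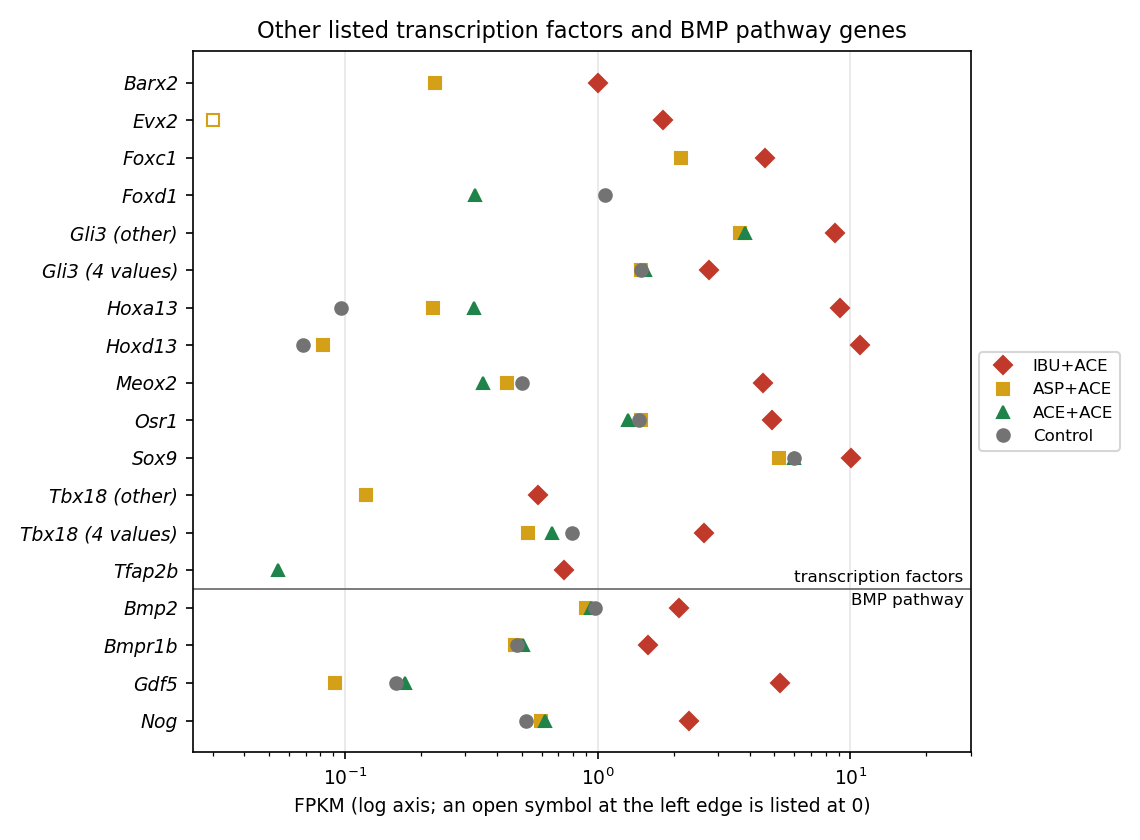
FPKM (log axis) of the other listed transcription factors and BMP pathway genes, with 1 symbol per library, and 2 rows where the tables hold 2 transcripts of a gene. In each row with an IBU+ACE value that library is the rightmost, and Foxd1 has values for ACE+ACE and Control only.

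Of 9 genes of ovary and meiosis that go with Msx or Irx genes in the fetal ovary, Bmp2, also a BMP gene, was the 1 with a row. Stra8, Rec8, Sycp3, Foxl2, Wnt4, Rspo1, Fst and Irx3 were not called between any libraries.

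Listed markers of cartilage, skin and of limb and genital mesenchyme were higher in IBU+ACE with the 6 genes, while those of muscle, liver and red cells showed other patterns. Between IBU+ACE and Control, 81.6% of all 185 listed transcripts were higher, so the markers higher over Control share the direction of most. Of 14 cartilage genes, 5 were higher in IBU+ACE than in Control and 0 lower, and the summed level of the 3 transcripts with 4 values was 44.9 FPKM in IBU+ACE, 2.26 FPKM in ASP+ACE, 3.93 FPKM in ACE+ACE and 5.05 FPKM in Control. Of 10 skin genes, 5 were higher and 0 lower, and the 5 transcripts summed to 31.9 FPKM in IBU+ACE, 4.08 FPKM in ASP+ACE, 3.87 FPKM in ACE+ACE and 5.51 FPKM in Control. Of 10 genes of limb and genital mesenchyme, 5 were higher and 0 lower, but Hoxa13, Hoxd13 and Gdf5 among them were already counted above. The 3 transcripts with 4 values (Hoxa13, Gdf5 and Kera) summed to 17.9 FPKM in IBU+ACE, 0.440 FPKM in ASP+ACE, 0.570 FPKM in ACE+ACE and 0.458 FPKM in Control. Hoxd13 and Lum lack a value and are not in this sum. Every transcript in the sums for cartilage, skin and limb and genital mesenchyme was listed as higher in IBU+ACE against each other library. The excess of IBU+ACE in these sums thus follows from which transcripts hold values in all libraries. Lum had 18.6 FPKM in IBU+ACE, 9.02 FPKM in ACE+ACE and 11.3 FPKM in Control, a ratio over Control of only 1.65. No marker of these 3 lists is listed at 0 in any library, and Trp63, Epcam and Prrx1 have no row.

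Of 5 skeletal muscle genes, 0 were listed between IBU+ACE and Control, but 3 (Actc1, Myh3 and Myod1) were higher in IBU+ACE than in ASP+ACE and 2 (Actc1 and Myh3) higher than in ACE+ACE. Of all rows, 92.0% against ASP+ACE and 89.2% against ACE+ACE were higher in IBU+ACE. These muscle counts, and the liver counts below in the same comparisons, share the direction of most rows. Myh3 had 4.54 FPKM in IBU+ACE, 2.41 FPKM in ASP+ACE, 1.85 FPKM in ACE+ACE and 4.46 FPKM in Control. Of 7 liver genes, 0 were listed between IBU+ACE and Control, 3 were higher in IBU+ACE than in ASP+ACE and 6 higher than in ACE+ACE, with a median log2 ratio of 1.93 over these 6. Among them, 5 transcripts summed to 220 FPKM in IBU+ACE, 131 FPKM in ASP+ACE, 58.3 FPKM in ACE+ACE and 209 FPKM in Control. Of 5 red cell genes, 3 (Hba-x, Hbb-bh1 and Hbb-y) were lower in IBU+ACE than in Control and 0 higher, 0 were listed against ASP+ACE, and against ACE+ACE 2 (Car2 and Slc4a1) were higher and 1 (Hbb-y) lower. Hbb-y, an embryonic globin gene, had 1557 FPKM in IBU+ACE, 1809 FPKM in ASP+ACE, 2350.3 FPKM in ACE+ACE and 3012 FPKM in Control. The part of other tissues in the levels of the 6 genes was not tested.

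The transcripts most like the 6 genes in their pattern were sought among 89 other named transcripts with values in all libraries. Likeness was the Euclidean distance, over the 3 exposed libraries, between log2 ratios to Control after adding 0.1 FPKM and the median of the 4 genes with complete values (2.81 in IBU+ACE, -0.27 in ASP+ACE and -0.25 in ACE+ACE). Meox2 was closest, at a distance of 0.231, followed by Susd5, a sushi domain gene (0.353), the predicted gene Gm13111 (0.407), the basal keratin gene Krt5 (0.499) and Xist (0.639). The deposited Xist locus overlaps 7 annotated genes, Tsix among them, so its value may include others. For comparison, Lmx1b itself lay 0.257 from the median, Irx5 0.385, Msx1 1.04 and Twist1 1.07. The measure rests on 4 libraries and says nothing of shared control.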

How the data were processed

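Per the submitters' processing notes, the tools included Cufflinks 2.2.1, TopHat2 2.1, Bowtie2 2.2.6, SAMtools 1.3, FastQC and bcl2fastq 2.17, and the genome was GRCm38; no settings are given. The authors deposited 6 tables, 1 per pair of libraries, with 726 rows over 382 transcripts, all marked as significant. The unit of the values, unnamed in the headers, is taken as FPKM from the layout, which is that of the Cufflinks tools. The deposited log2 fold changes equalled the log2 ratio of the deposited values within 1.09e-05. Every row has the deposited p-value of 5e-05 and q-value of 0.0310.

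Tables were read with Python 3.11.15 and plotted with matplotlib 3.10.9. EtOH was matched to Control as the remaining library. Levels of a library from several tables were combined, and 0 disagreed. Reading was tested on 200 simulated rows, and 200 were recovered. No test was run, as each group has 1 library. Loci start 1 base above the deposited number and were compared with GENCODE M21. Each value is that of 1 transcript. Transcripts of a gene can share a locus, as those of Gli3 do, so a locus can reach beyond the transcript measured. RefSeq promoter windows were searched for 7 motifs.

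The members and gene lists were chosen with earlier results of these data known. The text names the 6 genes, listed members of the lists and the 5 nearest profiles; the transcripts within 500 kb, and the genes without a row, were named after their values were seen. Alternatives were a threshold of 1 on the log2 scale, a minimum of 1 FPKM for the higher value, 0.1 or 1 FPKM added, single-gene loci, a q of 0.01 or less, named genes alone, and comparisons without IBU+ACE.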

Additional observations from a re-analysis of the deposited data

How the results depend on the processing

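The number of the 6 genes listed as higher in IBU+ACE was 6 against Control, 5 against ASP+ACE and 5 against ACE+ACE. A threshold of 1 on the log2 scale, and 0.1 FPKM added, left each of these counts as it was. A minimum of 1 FPKM for the higher value took Lmx1b out of each comparison. It left 5, 4 and 4 genes, within 1.5 times of the first counts. With 1 FPKM added, 3 genes (Msx1, Irx5 and Twist1) reached a log2 ratio of 1 over ASP+ACE. Msx2 fell short at 0.83. Lmx1b could not reach 1 by construction of the added value, since it was below 1 FPKM in IBU+ACE. Without loci that span more than 1 annotated gene, which takes out Irx1 and Lmx1b, 3 genes remained against ACE+ACE. At a q of 0.01 or less 0 remained in each of the 3 comparisons, since the deposited tables hold 1 q-value. Over the 6 tables there were 16 listings of these genes, and in comparisons without the IBU+ACE library 0, so every call rests on that 1 library. Each log2 ratio kept its direction with 0.1 or 1 FPKM added, and in 4 of 32 cases it fell below 1. Among named genes alone, 15.0% of transcripts listed between ACE+ACE and Control were higher, against 25.4% of all. Without read counts the error of low values such as those of Lmx1b is not known. No paired analysis was possible because each group has 1 library.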
